A study of Homo sapiens with 6 samples.

Results

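The genes described here build the contacts, polarity and keratin skeleton of epithelial cells. They were examined in ARPE-19, a cell line grown from the pigment epithelium of the human retina, on 3 arrays after transfection with a plasmid carrying GFP and satellite alpha (SATalpha) and 3 after transfection with the GFP plasmid alone. Satellite alpha is the repeat DNA of human centromeres. Each well received 2.5 µg of plasmid, and GFP was encoded in both groups. Wells were transfected in triplicate, but the labels give neither the time to harvest nor the share of cells that took up the plasmid, and do not say whether wells were separate cultures, so the p-values rest only on well-to-well spread, part or all of which may be technical. The list held 41 genes chosen by name for their role, with earlier results of these data known. Its counts beside those of all probe sets are therefore descriptive. All probe sets whose only annotated gene symbol was on the list were taken, with no minimum signal. This gave 124 probe sets of 38 genes among 49293 probe sets on the array. CTNND1, F11R and KRT17 had no probe set with a single symbol and are not analysed here.

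Epithelial sheets are held together by 3 kinds of contact. At adherens junctions, cadherins such as CDH1 bind those of the next cell and are anchored to actin through the catenins. At tight junctions, claudins and occludin close the space between cells and attach to scaffolds such as TJP1, the ZO-1 protein. At desmosomes, desmogleins and desmocollins are tied through plakophilins and desmoplakin to keratin filaments, which form from pairs of type I and type II keratins. Gap junctions built of connexins such as GJA1 join neighbouring cells electrically and chemically. In the eye, the retinal pigment epithelium uses these contacts as the outer blood-retina barrier, expresses the keratin pair KRT8 and KRT18, and can lose epithelial features in culture.

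Values are log2 signals as the authors normalized them, and differences are SATalpha minus GFP on that log2 scale, tested with limma over all 49293 probe sets with Benjamini-Hochberg adjustment and a threshold of 0.05. The arrays were alike, with medians of 5.29 to 5.31 and correlations over probe sets of 0.996 to 0.997 between arrays of the same plasmid and 0.995 to 0.996 between arrays of different ones. The 3′ minus 5′ control probe set difference of GAPDH, a measure of RNA degradation, was 0.393 ± 0.068 in SATalpha cells and 0.393 ± 0.046 in GFP cells (SD, n = 3, two-sided exact permutation p = 1, where 0.1 is the smallest p possible). The same difference for ACTB was 2.01 ± 0.13 in SATalpha cells and 2.06 ± 0.07 in GFP cells (SD, n = 3, exact permutation p = 0.6), and the bioB hybridization spike was 8.54 ± 0.10 and 8.70 ± 0.09 in SATalpha and GFP cells (SD, n = 3, exact permutation p = 0.2). Of 16 measured markers of the pigment epithelium 7 had signals above the array median in their strongest probe sets. Among its defining markers OTX2 (8.32 with SATalpha, 8.37 with GFP) and MITF (8.06 and 8.15) were above it, while RPE65 (3.33 and 3.48), BEST1 (4.61 and 4.63) and TYR (5.21 and 5.31) were not. Of 13 mesenchymal markers 7 were above the median, among them VIM (13.58 with SATalpha, 13.56 with GFP) and CDH2 (10.70 and 10.67), while others were low, such as THY1 (3.37 and 3.42), DCN (3.03 and 3.06) and LUM (1.97 and 2.11).

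CLDN1 and the keratins KRT18 and KRT7 fell in SATalpha cells, and GJA1 and most probe sets of CTNNB1 rose. Of the 124 probe sets, 14 were higher and 4 lower, against 4.18% higher and 4.19% lower of all probe sets (8.36% in either direction). Taking for each gene the probe set with the highest mean signal, 1 of 38 genes was higher (GJA1) and 3 were lower (CLDN1, KRT7 and KRT18), against 3.46% higher and 5.98% lower of all 18132 genes (9.45% in either direction). The median difference of the 38 genes was 0.02, against -0.01 over all genes. At least 1 probe set passed in 10 of 38 member genes, against 14.6% of all genes. That comparison is not matched for probe sets per gene, which numbered 124 for the 38 genes and 44988 for the 18132. The differences were small, from -0.36 (CLDN1) to 0.63 (GJA1), with a median standard error (SE) of 0.10 over all probe sets. The 3 SATalpha values lay above the 3 GFP values in 27 member probe sets and below them in 13, against 12.6% and 13.4% of all probe sets (26.0% together). Of the 18 calls, 11 passed whichever array was left out. Without GFP replicate 1, 9 member probe sets were higher instead of 14. The calls also rest on limma's use of signal level in estimating the spread: without that mean-variance trend 7 probe sets were higher and 0 lower. In whole wells, fewer cells with a transcript and less of it per cell cannot be told apart.

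**Figure D1:**
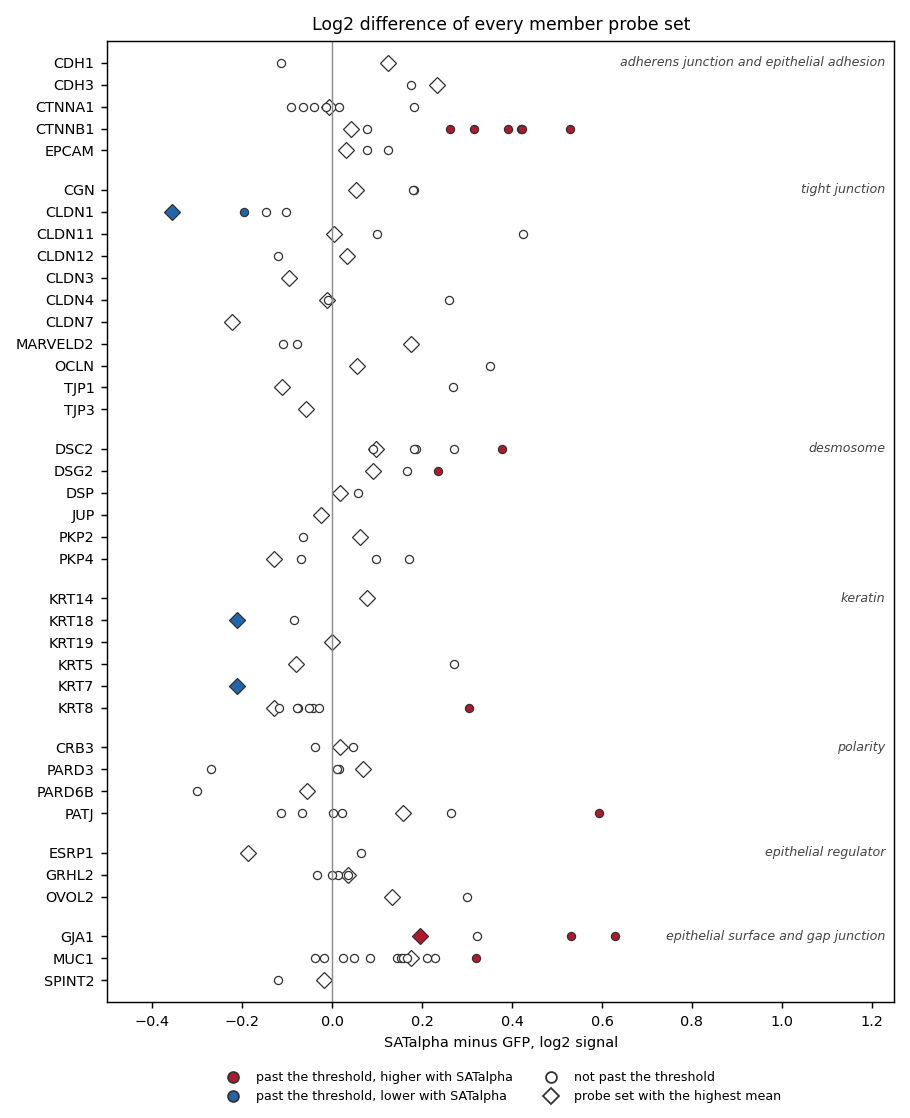
Each point is 1 of the 124 member probe sets, placed by its SATalpha minus GFP difference in log2 signal (horizontal axis) and its gene, grouped by role (vertical axis); red and blue mark those past the limma threshold, and diamonds mark the probe set with the highest mean of each gene. The red points lie mostly in CTNNB1 (6) and GJA1 (3), and the blue ones in CLDN1 (2), KRT18 and KRT7.

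The calls were concentrated among probe sets with strong signals. In the highest quartile of all probe sets by mean signal, above 7.24, 9 of 41 member probe sets rose and 4 fell, or 31.7%, against 19.5% of all probe sets in that quartile. Of the 9 that rose 6 were probe sets of CTNNB1, so this share rests largely on 1 gene. In the next quartile down 2 of 37 passed (5.41%, against 9.59%). In the one below it 1 of 23 passed (4.35%, against 3.39%). In the lowest quartile, below 3.68, 2 of 23 passed (8.70%, against 0.982%), namely single probe sets of PATJ and DSC2. No detection call was available here, so a weak signal does not show that a transcript was absent.

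**Figure D2:**
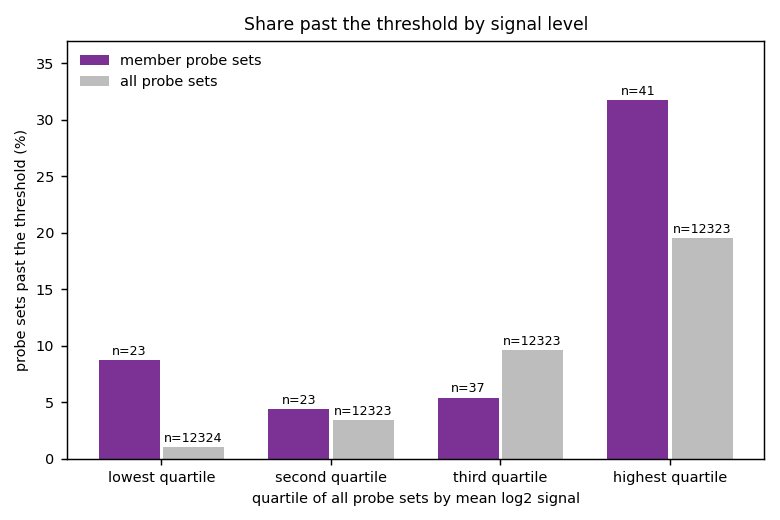
Bars give the percentage of probe sets past the limma threshold in each quartile of the mean log2 signal, for member probe sets (purple) and for all probe sets (grey), with the number of probe sets above each bar. The share was highest in the highest quartile in both, at 31.7% and 19.5%. Of the member calls in that quartile 6 were of CTNNB1.

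The promoters of the 3 genes whose changes carried most of the result are shown as the 250 bases before the transcription start, from the RefSeq promoter table for GRCh38.p14, written 5′ to 3′ on the gene's strand. Capitals mark matches on either strand to GGGCGG, the box bound by SP1, or to TGANTCA, the site of AP-1 factors. CLDN1, which fell, lies on the minus strand at chr3:190322447-190322696. GJA1, which rose, lies on the plus strand at chr6:121435396-121435645. CTNNB1, in which 6 of 8 probe sets rose, lies on the plus strand at chr3:41199255-41199504.
CLDN1: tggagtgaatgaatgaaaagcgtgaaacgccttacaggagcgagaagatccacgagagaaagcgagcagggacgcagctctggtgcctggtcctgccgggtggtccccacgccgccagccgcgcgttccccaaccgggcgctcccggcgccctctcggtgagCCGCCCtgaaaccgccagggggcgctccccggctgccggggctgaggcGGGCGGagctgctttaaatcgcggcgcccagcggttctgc
GJA1: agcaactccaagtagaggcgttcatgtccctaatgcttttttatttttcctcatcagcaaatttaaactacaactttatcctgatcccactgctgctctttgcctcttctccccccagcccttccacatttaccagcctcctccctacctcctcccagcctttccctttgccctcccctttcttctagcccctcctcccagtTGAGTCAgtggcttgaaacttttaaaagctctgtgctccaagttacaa
CTNNB1: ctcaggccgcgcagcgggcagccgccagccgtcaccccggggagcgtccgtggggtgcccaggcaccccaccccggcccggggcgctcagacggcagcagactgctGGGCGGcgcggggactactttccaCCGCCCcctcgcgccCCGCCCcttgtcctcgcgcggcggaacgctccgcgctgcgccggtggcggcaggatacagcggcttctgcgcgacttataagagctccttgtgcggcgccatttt
The CLDN1 stretch holds 2 SP1 boxes, the CTNNB1 stretch holds 3, and the GJA1 stretch holds 1 AP-1 site and no SP1 box.

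Among the 38 measured genes 24 had an entry in that table, and 6 motifs were searched on both strands. Genes without an entry were not searched, among them CDH1, CDH3, EPCAM, KRT7, KRT18, ESRP1, GRHL2 and OVOL2. CACCTG, the E-box bound by the ZEB and SNAI repressors of epithelial genes, was found in 9 of the 24 (37.5%), among them OCLN, TJP1, DSP, DSG2 and CRB3, against 16.8% of 14425 promoters of genes on the array and 17.5% of all 27305 promoters. GGGCGG was found in 19 (79.2%), against 57.2% and 42.3%. TGANTCA was found in 2 (8.33%), CLDN4 and GJA1, against 5.07% and 6.60%. TATAAA (8.77% of array genes, 11.1% of all promoters) and GGAATG, the TEAD site (9.93% and 11.9%), were each found in 1, in both cases MUC1. AACCNGTT, the grainyhead site, was found in CGN (1.36% and 1.48% of the same promoters). None of these motifs overlapped in the 3 stretches printed. The share of G and C bases had middle values of 66% and 66.8% in the stretches of the 24 members and a median of 58% over all 27305. Its part in the motif shares was not tested. These letters describe the promoters and were not related to the differences by any test.

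CLDN1, the claudin that seals many epithelia, had log2 signals of 8.91, 9.06 and 8.86 in SATalpha cells, against 9.21, 9.38 and 9.31 in GFP cells (probe set 11728232_a_at). Every SATalpha value was below every GFP value. The difference was -0.36 (SE 0.06, limma adjusted p = 0.00191), a level of 0.782 times that of GFP cells. A further CLDN1 probe set (11728234_a_at) stood at 8.24, 8.18 and 8.26 in SATalpha cells, against 8.40, 8.47 and 8.40 in GFP cells, a fall of 0.20 on the log2 scale (adjusted p = 0.0293). The other CLDN1 probe sets differed by -0.15 and -0.10 without passing, so the sign was negative in 4 of 4. The first call passed whichever array was left out but not without the mean-variance trend (adjusted p = 0.0627), while the weaker one passed only without SATalpha replicate 3 and otherwise differed by -0.21 with GFP replicate 1 or 3 left out, -0.18 with GFP replicate 2, -0.20 with SATalpha replicate 1 and -0.17 with SATalpha replicate 2.

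No other member of the tight junction passed in any probe set. In that group 2 of 25 probe sets changed, both of CLDN1, against 8.36% of all probe sets. CLDN11, a claudin of myelin and the testis, was at 8.67, 8.88 and 8.55 in SATalpha cells and 8.69, 8.66 and 8.73 in GFP cells, a difference of 0.0041 (95% confidence interval -0.15 to 0.15). CLDN12 differed by 0.03 (-0.08 to 0.15). The scaffold TJP1 was at 8.77, 8.68 and 8.83 in SATalpha cells and 8.88, 8.94 and 8.80 in GFP cells, so the groups overlapped (-0.11, interval -0.23 to 0.0056). Its other probe set differed by 0.27 in the opposite direction (adjusted p = 0.124). Occludin, OCLN, was at 6.70, 6.45 and 6.71 in SATalpha cells and 6.45, 6.64 and 6.61 in GFP cells (0.06, interval -0.13 to 0.24). Its other probe set differed by 0.35 and lay just outside the threshold (adjusted p = 0.0578), as did a weak probe set of CLDN11 (0.43, adjusted p = 0.0512). The remaining members CLDN3, CLDN4, CLDN7, CGN, MARVELD2 and TJP3 had differences of -0.22 (CLDN7) to 0.26 (CLDN4) over their 12 probe sets.

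KRT18, the type I keratin of simple epithelia, stood at 12.03, 11.95 and 12.03 in SATalpha cells, against 12.23, 12.19 and 12.23 in GFP cells (11754941_x_at). The groups did not overlap, and the difference was -0.21 (SE 0.03, limma adjusted p = 0.00139), or 0.863 times the GFP level. Its other probe set had the same sign but did not pass (-0.09, adjusted p = 0.151). KRT7, a type II keratin of glandular and ductal epithelia, was measured by a single probe set, at 10.827, 10.812 and 10.837 in SATalpha cells, against 11.016, 10.999 and 11.096 in GFP cells. Again every SATalpha value was lower, by 0.21 on average (difference -0.21, SE 0.04, adjusted p = 0.00289). Both calls passed whichever array was left out, and both were lost without the mean-variance trend (adjusted p = 0.114 for KRT18 and 0.115 for KRT7).

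KRT8, the type II partner of KRT18 and its direct neighbour among protein-coding genes on chromosome 12, gave a mixed picture. Its strongest probe set (11752634_x_at) was at 11.38, 11.29 and 11.39 in SATalpha cells, against 11.48, 11.45 and 11.52 in GFP cells, without overlap. The difference of -0.13 (SE 0.04) lay just outside the threshold (limma adjusted p = 0.0510, and 0.0488 after median centring, 0.0326 after quantile normalization). The 6 others with a negative sign differed by -0.12 to -0.03 and did not pass. A further KRT8 probe set (11755287_x_at) rose, with 9.93, 9.68 and 9.67 in SATalpha cells against 9.43, 9.30 and 9.63 in GFP cells (0.30, adjusted p = 0.0260). Leaving out GFP replicate 1 (0.29), GFP replicate 2 (0.23) or SATalpha replicate 1 (0.22) ended this call. All 8 KRT8 probe sets carry the suffix _x_, which Affymetrix gives to sets with probes that can match other transcripts, and KRT8 and KRT18 have many processed pseudogenes, so their values may include other sequences. On 6 of the 8 the lowest SATalpha value was that of replicate 3 while the highest GFP value was also that of replicate 3. The basal and stratified keratins KRT5 (-0.08) and KRT14 (0.08) and the simple keratin KRT19 (-0.0005) did not pass in their strongest probe sets.

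**Figure D3:**
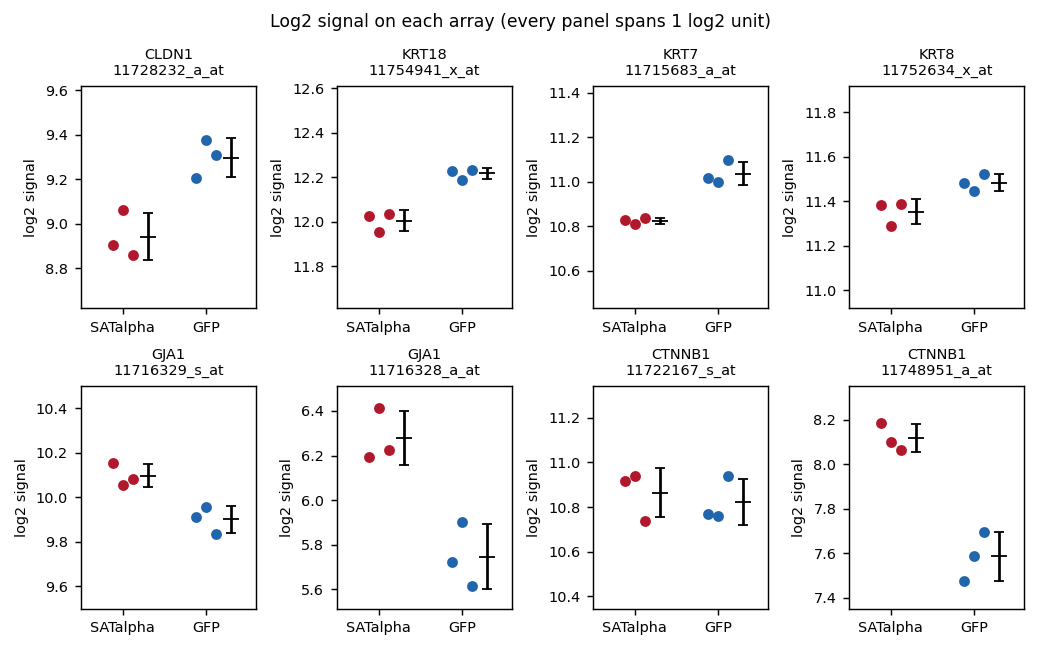
Points give the log2 signal of each array in SATalpha cells (red) and GFP cells (blue) for 8 probe sets, with the mean and SD of the 3 arrays in black beside them; every panel spans 1 log2 unit. SATalpha values lie wholly below GFP values for CLDN1, KRT18, KRT7 and KRT8, wholly above them for both GJA1 panels and for CTNNB1 11748951_a_at, and among them for CTNNB1 11722167_s_at.

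GJA1, connexin 43 of gap junctions, rose. Its strongest probe set (11716329_s_at) was at 10.15, 10.06 and 10.08 in SATalpha cells, against 9.91, 9.96 and 9.84 in GFP cells, a difference of 0.20 (SE 0.05, limma adjusted p = 0.0149). A second one (11716328_a_at) was at 6.19, 6.42 and 6.23 in SATalpha cells, against 5.72, 5.90 and 5.61 in GFP cells, a difference of 0.53 (SE 0.10, adjusted p = 0.00292), or 1.45-fold. The next, 11716327_x_at, rose by 0.63 (SE 0.13, adjusted p = 0.00711), and the fourth differed by 0.32 without passing (adjusted p = 0.117). All 4 probe sets thus had a positive sign, and every SATalpha value lay above every GFP value in each of them. Of all 3822 genes with at least 4 probe sets, 3.24% had 3 or more that rose. The probe set 11716328_a_at passed whichever array was left out. The strongest one lost its call without GFP replicate 1 (0.20), GFP replicate 3 (0.16) or SATalpha replicate 1 (0.17) and without the mean-variance trend (adjusted p = 0.160), and 11716327_x_at lost it without GFP replicate 1 (0.52).

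CTNNB1 encodes beta-catenin, which links cadherins to alpha-catenin and also carries the Wnt signal to the nucleus. Of its 8 probe sets 6 rose, by 0.26 to 0.53, and all 8 differences were positive. Among the 6, 11747388_x_at, 11748952_x_at, 11749022_x_at and 11750680_x_at carry the suffix _x_, so their probes may match other transcripts. The others, 11747387_a_at and 11748951_a_at, do not carry it. Whether the 6 are independent readings was not tested. Over all members 8 of 39 _x_ probe sets passed (20.5%), against 8.69% of all _x_ probe sets. The probe set with the largest difference (11748951_a_at) was at 8.18, 8.10 and 8.06 in SATalpha cells, against 7.48, 7.59 and 7.69 in GFP cells (0.53, SE 0.07, limma adjusted p = 0.000168), or 1.44-fold. Another, 11748952_x_at, was at 8.74, 8.75 and 8.73 in SATalpha cells, against 8.22, 8.29 and 8.43 in GFP cells (0.42, adjusted p = 0.000376). In each of the 6 the lowest SATalpha value exceeded the highest GFP value, and each passed whichever array was left out. The probe sets with the 2 highest means did not pass. The first (11722167_s_at) was at 10.92, 10.94 and 10.74 in SATalpha cells and at 10.77, 10.76 and 10.94 in GFP cells, a difference of 0.04 (95% confidence interval -0.08 to 0.16), and the second differed by 0.08 (adjusted p = 0.337). The upper end of the interval of the strongest probe set lay below the smallest of the 6 differences, and the difference between probe sets was not tested. Averaged over its 8 probe sets, CTNNB1 differed by 0.31 (adjusted p = 0.000880). Of the 300 genes with 8 or more probe sets, 3.67% had 6 or more past the threshold.

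**Figure D4:**
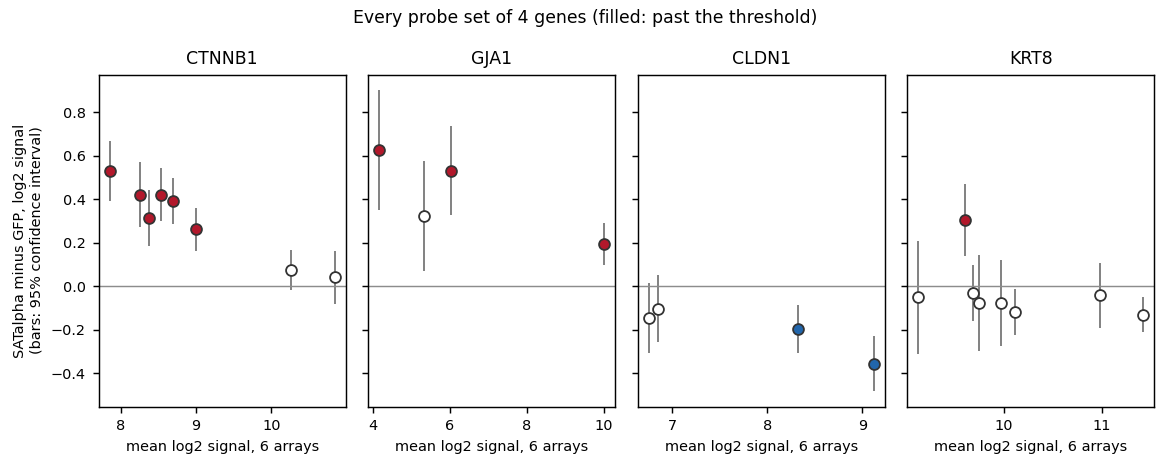
Each point is a probe set of CTNNB1, GJA1, CLDN1 or KRT8, placed by its mean log2 signal over the 6 arrays (horizontal axis) and its SATalpha minus GFP difference in log2 signal with the 95% confidence interval (vertical axis); filled points passed the limma threshold. All CTNNB1 and GJA1 points lie above 0 and all CLDN1 points below it, while KRT8 has 1 filled point above 0 and 7 open ones below.

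The other adherens junction members did not pass. CTNNA1, alpha-catenin, which binds actin, was at 10.64, 10.55 and 10.82 in SATalpha cells and 10.67, 10.72 and 10.64 in GFP cells, a difference of -0.0073 (95% confidence interval -0.13 to 0.11), and its 7 probe sets ran from -0.09 to 0.18. CDH1, E-cadherin, had weak signals of 3.93, 3.92 and 3.95 in SATalpha cells and 3.73, 3.72 and 3.99 in GFP cells (0.12, interval -0.12 to 0.37). Its other probe set, weaker still, differed by -0.11. CDH3, P-cadherin, the classical cadherin of native pigment epithelium, was at 5.75, 6.09 and 5.76 in SATalpha cells and 5.59, 5.53 and 5.77 in GFP cells. Its difference was 0.23 (interval 0.0050 to 0.46, adjusted p = 0.221), and the groups overlapped. EPCAM, an adhesion protein of most epithelia, was at 2.23, 2.27 and 2.51 in SATalpha cells and 2.31, 2.18 and 2.42 in GFP cells, in the lowest quartile of all signals.

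Of 18 probe sets of desmosome members 2 passed, against 8.36% of all probe sets. Differences were positive in 14 of the 18, against 76 of the 124 of all members. The 14 include 6 of DSC2 and 3 of DSG2, so they are not separate support. DSG2, the desmoglein of simple epithelia, rose in 1 of 3 probe sets (11725523_at), with 7.94, 7.84 and 7.83 in SATalpha cells against 7.63, 7.75 and 7.53 in GFP cells (0.24, SE 0.07, limma adjusted p = 0.0394). Its strongest probe set was at 9.40, 9.31 and 9.31 in SATalpha cells against 9.23, 9.29 and 9.23 in GFP cells, without overlap but not past the threshold (0.09, adjusted p = 0.287). DSC2, the partnering desmocollin, had positive differences in 6 of 6 probe sets, of which the weakest in signal passed (11725530_a_at, 2.78, 3.01 and 2.81 in SATalpha cells against 2.54, 2.54 and 2.39 in GFP cells, 0.38, adjusted p = 0.0405). The DSG2 call held only with GFP replicate 2 or SATalpha replicate 3 left out, and otherwise its difference was 0.18 to 0.25. The DSC2 call held only with SATalpha replicate 3 left out, and otherwise its difference was 0.31 to 0.42. Desmoplakin, DSP, which anchors keratin filaments, was at 10.29, 10.34 and 10.19 in SATalpha cells and 10.22, 10.21 and 10.35 in GFP cells (0.02, 95% confidence interval -0.09 to 0.13). The plakophilin PKP4 differed by -0.13 (adjusted p = 0.219), and JUP (plakoglobin) and PKP2 by -0.02 and 0.06 in their strongest probe sets. The 4 probe sets of PKP4 ran from -0.13 to 0.17, with 2 of each sign, and the 2 of PKP2 from -0.06 to 0.06.

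Of the polarity members, 1 of 16 probe sets passed, against 8.36% of all probe sets. PATJ, a scaffold of the apical Crumbs complex, rose in 1 of 7 probe sets (11733371_at), which had weak signals of 3.36, 3.13 and 3.48 in SATalpha cells against 2.69, 2.72 and 2.78 in GFP cells (0.59, SE 0.11, limma adjusted p = 0.00441, passed whichever array was left out). Its strongest probe set differed by 0.16 (adjusted p = 0.477) and the others by -0.11 to 0.26. PARD3, which places tight junctions, was at 7.51, 7.45 and 7.51 in SATalpha cells and 7.41, 7.54 and 7.31 in GFP cells (0.07, adjusted p = 0.634). Another of its 4 probe sets differed by -0.27 without overlap or passing (adjusted p = 0.114). PARD6B, its partner, had negative differences in both probe sets (-0.06 and -0.30) and CRB3, the epithelial Crumbs protein, differed by 0.02, none past the threshold.

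The regulators of epithelial identity had weak signals and no call in 9 probe sets, against 8.36% of all probe sets. None of the 9 had a mean signal above the median of all probe sets. In the quartiles below that median 0.982% and 3.39% of all probe sets passed, so the lack of a call says little about these genes. The splicing factor ESRP1 was at 3.43, 3.35 and 3.23 in SATalpha cells and 3.42, 3.76 and 3.40 in GFP cells (-0.19, adjusted p = 0.425). The transcription factor GRHL2 was at 3.85, 4.25 and 3.90 in SATalpha cells and 3.61, 4.17 and 4.11 in GFP cells (0.04, adjusted p = 0.934), and OVOL2 differed by 0.13. Among surface proteins, the mucin MUC1 rose in 1 of 13 probe sets (11745158_x_at), with 6.39, 6.49 and 6.44 in SATalpha cells against 6.15, 6.07 and 6.14 in GFP cells (0.32, SE 0.07, limma adjusted p = 0.0153). Leaving out GFP replicate 1 (0.34), GFP replicate 2 (0.30) or SATalpha replicate 2 (0.30) ended it. Of the 13 MUC1 differences 11 were positive, and its strongest probe set was at 7.16, 7.20 and 7.27 in SATalpha cells against 6.97, 7.04 and 7.09 in GFP cells (0.18, adjusted p = 0.122). SPINT2, a membrane inhibitor of serine proteases, was at 10.27, 10.33 and 10.31 in SATalpha cells and 10.31, 10.30 and 10.37 in GFP cells (-0.02, 95% confidence interval -0.10 to 0.07).

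A list of 124 other genes of junctions, polarity, keratins and their regulators was read beside the members. Of its 109 measured genes 6 rose and 5 fell by their strongest probe sets, against the same 3.46% and 5.98%, with a median of -0.0001. CDC42, the small GTPase that activates the PARD6 polarity complex, rose in 9 of 9 probe sets by 0.25 to 0.57. Its strongest probe set was at 10.03, 10.07 and 9.89 in SATalpha cells against 9.73, 9.64 and 9.69 in GFP cells (0.31, SE 0.05, limma adjusted p = 0.00131). Of the 9 calls 7 passed whichever array was left out, and 2 passed without the mean-variance trend, the strongest probe set not among them (adjusted p = 0.0635). PALS1, the Crumbs complex scaffold that binds PATJ, fell in its strongest probe set (-0.27, adjusted p = 0.00478), although its 5 probe sets ran from -0.27 to 0.23 and the call was lost without the trend (adjusted p = 0.0878).

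NECTIN2, an immunoglobulin-type adhesion protein of adherens junctions, rose in both probe sets. The stronger was at 8.74, 8.81 and 8.78 in SATalpha cells against 8.18, 8.17 and 8.27 in GFP cells (0.57, SE 0.05, limma adjusted p = 1.21e-05), and its call held without the trend (adjusted p = 0.00751). The other (0.19, adjusted p = 0.0416) passed in 1 of 6 fits with an array left out and not without the trend (adjusted p = 0.168). VCL, vinculin, which strengthens the link of alpha-catenin to actin, fell by 0.18 on the log2 scale (adjusted p = 0.00935, and 0.175 without the trend). Of tight junction genes JAM2 (0.58) and JAM3 (0.24) rose by their strongest probe sets while AMOTL2 (-0.34) and CLDN15 (-0.40) fell, with adjusted p-values from 0.00430 to 0.0232. JAM2 passed in 1 of 3 probe sets, with differences of -0.09 to 0.58, and JAM3 in 2 of 2. AMOTL2 passed in 2 of 3, with differences of -0.54 to 0.18, and CLDN15 in 1 of 2, with differences of -0.40 and -0.14. PERP, a desmosome protein, rose by 0.25 in 1 of its 2 called probe sets, the channel protein PANX1 by 0.27, the connexin GJC1 by 0.46 in 1 of 3 probe sets and MAL2, of apical transport, by 0.31 in 1 of 2. Of the 26 calls in this list 13 passed whichever array was left out, and 5 passed without the mean-variance trend, namely 2 of CDC42 and 1 each of NECTIN2, AMOTL2 and CLDN15. The PERP call was lost without GFP replicate 1, GFP replicate 3 or SATalpha replicate 1 (over the arrays left out, 0.21 to 0.32) and the stronger JAM3 call in 4 of 6 such fits (0.19 to 0.26), among them that without GFP replicate 1. The call of PANX1 was lost without GFP replicate 3 or SATalpha replicate 1 (lowest difference 0.21), that of GJC1 without GFP replicate 1 or 3 (lowest 0.38) and that of JAM2 without GFP replicate 1 (over the arrays left out, 0.41 to 0.67). None of the 21 probe sets of other keratins passed, against 8.36% of all probe sets.

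Of the repressors of epithelial genes none passed. ZEB1 differed by -0.15 (adjusted p = 0.161) and ZEB2 by -0.24 (adjusted p = 0.0655) in their strongest probe sets, with every SATalpha value below every GFP value in both. TWIST1 differed by 0.29 (adjusted p = 0.0563), with every SATalpha value above every GFP value. SNAI1 differed by 0.18 (adjusted p = 0.362) and SNAI2 by 0.14 (adjusted p = 0.485), with overlap. Mean log2 signals over markers of mesenchymal cells (13 of 13 measured) were 6.67 to 6.72 in SATalpha cells and 6.74 to 6.76 in GFP cells, with TAGLN higher (0.16) and ACTA2 lower (-0.52) by the strongest probe set, named here after their values were seen. Over markers of the pigment epithelium (16 of 18 measured, of which CDH3, KRT8 and KRT18 are also members) they were 5.85 to 5.91 in SATalpha cells and 5.92 to 5.93 in GFP cells. By the strongest probe set 0 were higher and 1, KRT18 itself, was lower. Of all 45 probe sets of these markers 1 was higher, of KRT8, and 2 were lower, of KRT18 and BEST1. The BEST1 probe set had a weak mean signal of 2.88 (-0.60, limma adjusted p = 0.0270), while the strongest of BEST1 differed by -0.02 without passing. The part of these markers in the changes of CLDN1, KRT7 and KRT18 was not tested. Over immune markers (6 of 7 measured) the ranges were 4.22 to 4.25 in SATalpha cells and 4.17 to 4.33 in GFP cells, over endothelial ones (5 of 5) 5.11 to 5.24 and 5.06 to 5.17, and over neural ones (5 of 5) 6.27 to 6.38 and 6.34 to 6.49, in the same order of groups. No immune or endothelial marker passed, and of the neural ones TUBB3 was lower (-0.37, adjusted p = 5.43e-05), also named after its value was seen.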

How the data were processed

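The series matrix values are log2 probe set signals that the authors deposited already normalized between arrays. Per the submitters' processing notes MAS5 and RMA were used, without saying which made these values. What else was set, and in which version, is not given here. The log2 base was read from the values. Of 49372 rows, 79 Affymetrix control probe sets were left out of the tests. Genes were named from the platform annotation: 44988 probe sets had 1 symbol, 1832 had several and 2473 had none listed. No symbol of the 188 listed genes on the array needed an update against RefSeq. No genome build is named for the array, so the coordinates are those of the RefSeq promoter table.

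SATalpha and GFP arrays (3 each, grouped by their titles) were compared with limma 3.58.1 in R 4.3.3 (lmFit, eBayes with a mean-variance trend) over all 49293 probe sets with no floor, with Benjamini-Hochberg adjustment over all of them. Confidence intervals are limma's, at 95%. The number of arrays limits the precision. In 10 simulated repeats of the SATalpha minus GFP comparison, with 200 of 49293 probe sets changed, the test recovered 5.6% of changes of 1.2-fold and 40.6% of 1.5-fold, and 1.24% of calls were false. In the data 8.36% of probe sets passed, a larger share than was changed in the simulations, so these rates may not hold for the real comparison. Array quality measures were compared with an exact permutation test.

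Members and lists were chosen with earlier results of these data known. Named were members past the threshold, members with a mean signal of at least 7, 12 set members and, of the other list, 12 past the threshold by smallest p with 5 repressors. Alternatives were another filter, 1 probe set or the mean per gene, no _s_ or _x_ probe sets, quantile or median scaling, a replicate block, no trend, array weights, an unmoderated model, a 1.2-fold minimum and each array left out.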

Additional observations from a re-analysis of the deposited data

How the results depend on the processing

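Quantile normalization, median centring and array weights moved no count of calls by over 1.5 times. In order, the counts were all probe sets higher and lower (2058 and 2065), member probe sets higher and lower (14 and 4), member genes by strongest probe set higher and lower (1 and 3) and other-list genes higher and lower (6 and 5). Leaving out 1 array at a time gave ranges of 1055 to 2079, 906 to 2246, 9 to 15, 3 to 5, 0 to 1, 3 to 4, 3 to 6 and 4 to 6 in that order, with fewer arrays in each fit. Without the mean-variance trend the counts were 688, 633, 7, 0, 0, 0, 1 and 2, and with the unmoderated model 153, 170, 1, 0, 0, 0, 1 and 0. Without _s_ and _x_ probe sets 1312 probe sets were higher and 1371 lower, with 6 member probe sets and 3 member genes higher, with fewer probe sets tested. With a 1.2-fold minimum 1320 probe sets, 1 member probe set, 1 member gene and 3 other-list genes were lower, and 0 member genes were higher. By the mean of all probe sets 2 member genes were higher and 3 other-list genes lower. Other-list genes lower numbered 8 without the lowest 40% of probe sets and 9 with 1 probe set per gene.

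With the replicate number as a block, 1221 probe sets were higher and 1107 lower, 0 member genes were higher by their strongest probe set and 3 other-list genes were higher, while the calls of CLDN1, KRT7 and KRT18 held (adjusted p = 0.00436, 0.0176 and 0.00895). Same-numbered arrays did not deviate together (correlations -0.0061, -0.12 and -0.14). In this check no SATalpha array correlated best with its own number, and the numbers were not taken as pairs. Of 262 repeats of the 18 member calls, 199 kept the call, 63 lost it and 0 changed sign; the cause was not tested. Among named probe sets that did not pass, 17 of 269 repeats changed sign, in 8 genes: EPCAM with array weights (-0.0059), and, over the arrays left out, EPCAM (-0.055 to 0.090), CLDN11 (-0.089 to 0.080), CLDN12 (-0.0047 to 0.061), CTNNA1 (-0.080 to 0.051), DSP (-0.017 to 0.064), GRHL2 (-0.14 to 0.14), OCLN (-0.0046 to 0.14) and SPINT2 (-0.034 to 0.0038).

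In the simulations changes of 1.2-fold were mostly missed with 3 arrays a group, so a value that did not pass is not shown to be equal. Without detection calls, weak signals cannot be separated from background.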
